A study of Saccharomyces cerevisiae with 95 samples.

Results

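Yeast cells lacking *ADH1* were followed for 4 h after a move into fresh glucose medium, on 3 of the 95 arrays of the series, at 0.5, 2 and 4 h with 1 array per time point. These 3 arrays were chosen by their labels alone. The strain was a haploid BY4741 derivative in which KANMX replaces *ADH1*. By its genotype it also lacks *LEU2*, *URA3* and *MET17* (*MET15*) and carries a *HIS3* deletion. All samples used here are of this strain, except 2 log-phase arrays of wild-type BY4741 that serve only as a measure of replicate scatter. Cells were grown in YPD, the rich medium with glucose, to a set optical density, in what the study calls an overnight culture. They were then washed and diluted into fresh YPD, or into rich medium with glycerol in place of glucose (4 arrays, at 0.5, 1, 2 and 4 h). On each array the transferred cells carried Cy5 and the overnight culture they came from carried Cy3, so a positive log2 ratio stands for a higher level after the move and a value of 1 for 2-fold. This one mutant strain grew faster on glycerol than on glucose by the series' own account, and no array of wild-type cells after the same transfer is used here.

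Adh1 is the main alcohol dehydrogenase of fermenting yeast, which reduces acetaldehyde to ethanol and in doing so returns NADH to NAD+. Glycerol synthesis through Gpd1, Gpd2, Gpp1 and Gpp2 is the other large outlet for cytosolic NADH in cells on glucose. When glucose is added to cells that had run low on it, the Ras and protein kinase A pathway and Sch9 raise the genes for ribosome assembly and ribosomal proteins (RP), while genes of the general stress response, many of them targets of Msn2 and Msn4, are shut down. Whether the overnight culture used here had run low on glucose is not given. The course recorded these and all other genes at 3 times in a mutant without its main fermentative enzyme.

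The response was broad at 0.5 h and smaller at 4 h. At 0.5 h, 574 of 5919 ORFs with a value (9.70%) were at least 2-fold higher than in the overnight culture and 369 (6.23%) at least 2-fold lower. At 2 h the counts were 531 of 5970 higher (8.89%) and 311 lower (5.21%), and at 4 h 401 of 5979 higher (6.71%) and 213 lower (3.56%). The ratios also spread less at 4 h, with a standard deviation over ORFs of 0.749, 0.707 and 0.624 at the 3 times. When each array was scaled to the spread of the first, the 4 h array held 664 ORFs past 2-fold higher and 387 lower. Such scaling raises the 4 h values by design. A weaker response and a narrower array both lower the spread and the count, so they cannot be told apart here. Set against each other, the 4 h and 0.5 h arrays gave 299 of 5821 ORFs at least 2-fold higher at 4 h (5.14%) and 329 at least 2-fold lower (5.65%). The RNA came from whole cultures, in which a shift in the mix of cells and a shift in RNA per cell cannot be told apart.

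No time point had a replicate, so none of these values has an error of its own and none was tested. As a yardstick, 3 replicate arrays of the same strain in log phase on glycerol and on glucose had a median standard deviation of 0.129 per ORF (95th percentile 0.358 over 4991 ORFs). Between 0.198 and 0.914% of their ORFs differed by 2-fold or more between a pair of arrays. For the 2 wild-type log-phase arrays this share was larger, 2.95% of 5182 ORFs. The ORFs of genes that the *adh1* strain lacks give a further measure. At 0.5, 2 and 4 h the *ADH1* ORF read 0.12, 0.63 and 0.19, the *LEU2* ORF -0.04, 0.26 and 0.18, the *MET17* ORF 0.57, 0.56 and 0.21, and the *URA3* ORF was listed at exactly 0 throughout. The spots of these 4 genes thus gave ratios of up to 0.63, all short of 2-fold, which sets no limit for other spots. Alpha-specific mating genes in this *MAT*a strain, given below, reached 1.14 at 2 h. PCR-product spots do not separate near-identical paralogs, overlapping ORFs or strands. This applies to most RP genes and to *GPP1* and *GPP2*, *TDH1* to *TDH3*, *TEF1* and *TEF2*, *EFT1* and *EFT2*, the *AAD* genes and the hexose transporters.

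By the times at which they were past 2-fold, the 5751 ORFs with values on all 3 arrays fell into classes. Of 901 that were higher at least once, 385 were early (past 2-fold at 0.5 h but not at 4 h), 214 late (past 2-fold at 4 h but not at 0.5 h), 147 sustained (past 2-fold at all 3 times) and 132 middle (at 2 h only). The 571 that were lower at least once comprised 283 early, 128 late, 65 sustained and 78 middle ORFs. The remaining 23 and 17 were past 2-fold at 0.5 and 4 h but not between. Early was the most frequent class in both directions, with 42.7% of the higher and 49.6% of the lower ORFs. With each array scaled to the spread of the first, late ORFs outnumbered early ones, 399 late against 316 early on the higher and 265 against 254 on the lower side. That scaling raises the 4 h values by design, so it cannot show which order holds.

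These classes rest on a line at 2-fold, with values such as 1.0004 just inside it and 0.99955 just outside it at 0.5 h. Between 216 and 332 ORFs per array and direction lay within 0.129 of that line. Among the early higher ORFs 190 of 385 had in fact moved by 2-fold or more between 0.5 and 4 h, and among the early lower ORFs 133 of 283. In the late classes this held for 74 of 214 higher and 28 of 128 lower ORFs. Moves of under 0.5 on the log2 scale between 0.5 and 4 h were found for 98 of the early and 56 of the late higher ORFs, and for 50 of the early and 43 of the late lower ORFs, so part of every one of these classes crossed the line by a small step. 13 ORFs were past 2-fold in both directions, among them *GPD1*, *HSP30*, *BDH1*, *EMI2*, *GRX2*, *YAP5* and *THI4*, which ended higher, and *UTP7*, *PXR1*, *PWP1* and *TEX1*, which ended lower.

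**Figure D1:**
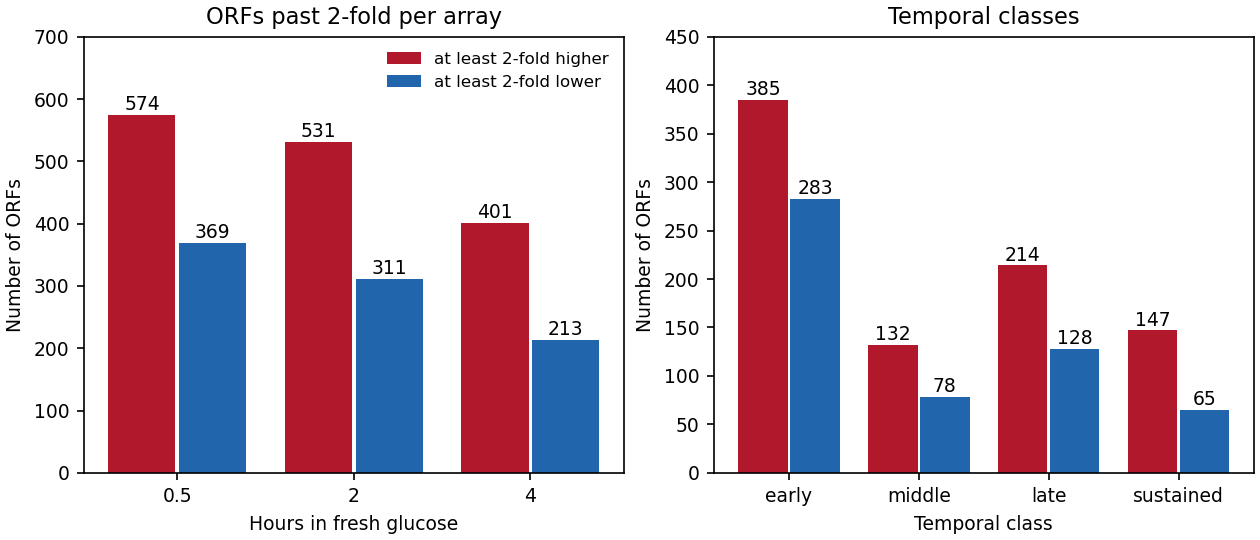
Left, number of ORFs at least 2-fold higher (red) or lower (blue) than in the overnight culture on each array, against hours in fresh glucose; right, number of ORFs in 4 temporal classes in the same colors, among ORFs with values on all 3 arrays. The higher counts go from 574 at 0.5 h through 531 at 2 h to 401 at 4 h, and the early class is the largest in both directions.

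Genes for making the ribosome were the core of the early class. The ribosomal biogenesis module, a group of co-expressed assembly, rRNA processing and RNA polymerase genes taken from the study's gene lists, had a median log2 ratio of 1.15 at 0.5 h, 0.30 at 2 h and -0.12 at 4 h, beside medians over all ORFs of 0.0081, 0.0088 and 0.003. At 0.5 h, 133 of 224 members were at least 2-fold higher (9.70% of all ORFs) and 0 were lower. At 2 h 28 of 221 were still past 2-fold (8.89% of all ORFs), and at 4 h 7 of 224 were higher (6.71% of all ORFs) and 10 lower (3.56% of all ORFs). With 120 members in the early higher class, this module made up a large share of the 385 ORFs there. Between 0.5 and 4 h, 145 of 219 members came down by 2-fold or more, against 5.65% of all ORFs, and 1 went up. The module is one that the study drew from a large compendium of yeast profiles, and its response at 0.5 h was known when the lists were chosen.

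Within ribosome assembly, each step showed the same early peak. The 9 subunits of RNA polymerase I, which transcribes the rRNA precursor, had a median of 1.65 at 0.5 h, 0.51 at 2 h and -0.02 at 4 h, with 8, 2 and 0 of them past 2-fold higher (9.70, 8.89 and 6.71% of all ORFs). The largest subunit, *RPA190*, was at 2.35, 1.16 and 0.66, and the second largest, *RPA135*, at 2.12, 0.99 and 0.00. Subunits of RNA polymerase III, which makes tRNA and the smallest rRNA, had medians of 1.20, 0.36 and 0.31. The small-subunit processome stood at 1.18, 0.22 and 0.04 (25 of 37, 4 of 37 and 2 of 35 past 2-fold higher) and the factors that assemble the large subunit at 1.49, 0.50 and -0.05 (32 of 41, 8 of 41 and 3 of 43). Over all ORFs the shares were 9.70, 8.89 and 6.71%, so both lists were near the share of all ORFs at 4 h, and the processome at 2 h too. All 41 large-subunit factors measured at 0.5 h were above 0, and at 4 h 20 of 43 were.

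Several assembly genes were among the strongest early genes of the whole array. *NOG1*, a GTPase of the maturing large subunit, read 3.14, 2.00 and 0.47 at 0.5, 2 and 4 h. *NOP7* and *NIP7*, both needed for large-subunit maturation, read 2.49, 1.18 and -0.49, and 2.36, 0.65 and -0.64. *BFR2*, of the small-subunit pathway, read 1.97, 0.75 and -0.83. Of these 4, *NOG1* ended above the overnight culture and the others below it. *URA7*, the CTP synthase, followed the same course with 2.69, 1.01 and -0.39, and *AAH1*, adenine deaminase, was at 3.10 at 0.5 h and -0.02 at 4 h with no value at 2 h. A few assembly genes went on to levels below the overnight culture. *PXR1* was at 1.10, -0.25 and -1.68, *UTP7* at 1.30, -0.42 and -1.09 and *PWP1* at 1.25, -0.10 and -1.01. *TEX1*, of the mRNA export machinery, did likewise at 1.13, 0.89 and -1.03. Against this trend *SNU13*, *UTP22* and *GAR1* were past 2-fold at 4 h, with 1.10, 1.08 and 1.10. So were other genes of the ribosomal biogenesis module, such as *EFM4* at 1.60 and *FPR4* at 1.31.

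RP genes took a different course from the genes that assemble them. The RP module had medians of 1.19, 1.46 and 0.88 at 0.5, 2 and 4 h, with 76 of 114, 98 of 115 and 41 of 115 members past 2-fold higher, against 9.70, 8.89 and 6.71% of all ORFs, and none lower. Its highest point was thus at 2 h, when assembly genes had already come down. At 4 h 112 of 115 members were still above 0. Of the 147 ORFs that were sustained at higher levels 38 were RP genes, as were 37 of the 385 early and 23 of the 132 middle ORFs, among 5751 ORFs classed. Between 0.5 and 4 h 7 of 114 RP genes came down by 2-fold or more, a share near the 5.65% of all ORFs, and none went up.

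RP genes were among the highest sustained values. *RPL9B* was at 2.23, 2.81 and 2.10, *RPS3* at 2.07, 2.56 and 2.00, *RPS20* at 1.96, 2.58 and 1.85, *RPL12A* at 1.90, 2.16 and 2.13 and *RPS26A* at 1.60, 2.31 and 2.20. All 5 were 3-fold or more above the overnight culture on all 3 arrays. At the low end of the module, *RPL6A* was at 0.85, 0.24 and -0.12, and *RPL20A* and *ASC1* lay between -0.07 and 0.25 throughout. *BLI1*, of an endosomal complex and not a ribosomal gene, was nonetheless among the top 4 sustained genes, at 2.13, 2.03 and 1.93. *FPR1*, the proline isomerase that binds rapamycin, came later and stayed, at 0.65, 2.19 and 2.18.

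Of a list of 10 regulators of ribosome genes (*SFP1*, *IFH1*, *FHL1*, *RAP1*, *CRF1*, *DOT6*, *TOD6*, *STB3*, *SCH9* and *HMO1*), none was past 2-fold at any time, and the highest value, 0.99, was that of *SFP1* at 2 h. In the Ras and protein kinase A pathway, the catalytic subunit gene *TPK2* was lower early (-1.74, -1.16 and 0.00) and the phosphodiesterase gene *PDE2* lower late (-0.62, -1.19 and -1.41). The glucose receptor gene *GPR1* was at 1.42, 1.35 and 0.97. Transcript ratios carry no information on the activity of these proteins.

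At 2 and 4 h the medians of other parts of the translation machinery lay between those of the 2 groups. Translation initiation and elongation factors had medians of 1.10, 0.65 and 0.33, and the elongation factor genes *TEF4* (2.19, 2.27 and 1.26), *YEF3* (1.51, 1.81 and 1.07), *EFT1* (1.29, 1.67 and 1.21) and *EFT2* (1.20, 1.90 and 1.30) kept the time course of RP genes. Of the initiation factor genes, *TIF3* at 1.41, 0.61 and -0.44 and *SUI2* at 1.27, 0.31 and 0.05 were early, as the assembly genes were. The 20 cytosolic aminoacyl-tRNA synthetases, which charge tRNAs, had medians of 1.25, 0.87 and 0.42 with 13, 6 and 0 of them past 2-fold higher, against 9.70, 8.89 and 6.71% of all ORFs. The highest of these at 0.5 h was *KRS1*, for lysine, at 2.07, 1.21 and 0.43.

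**Figure D2:**
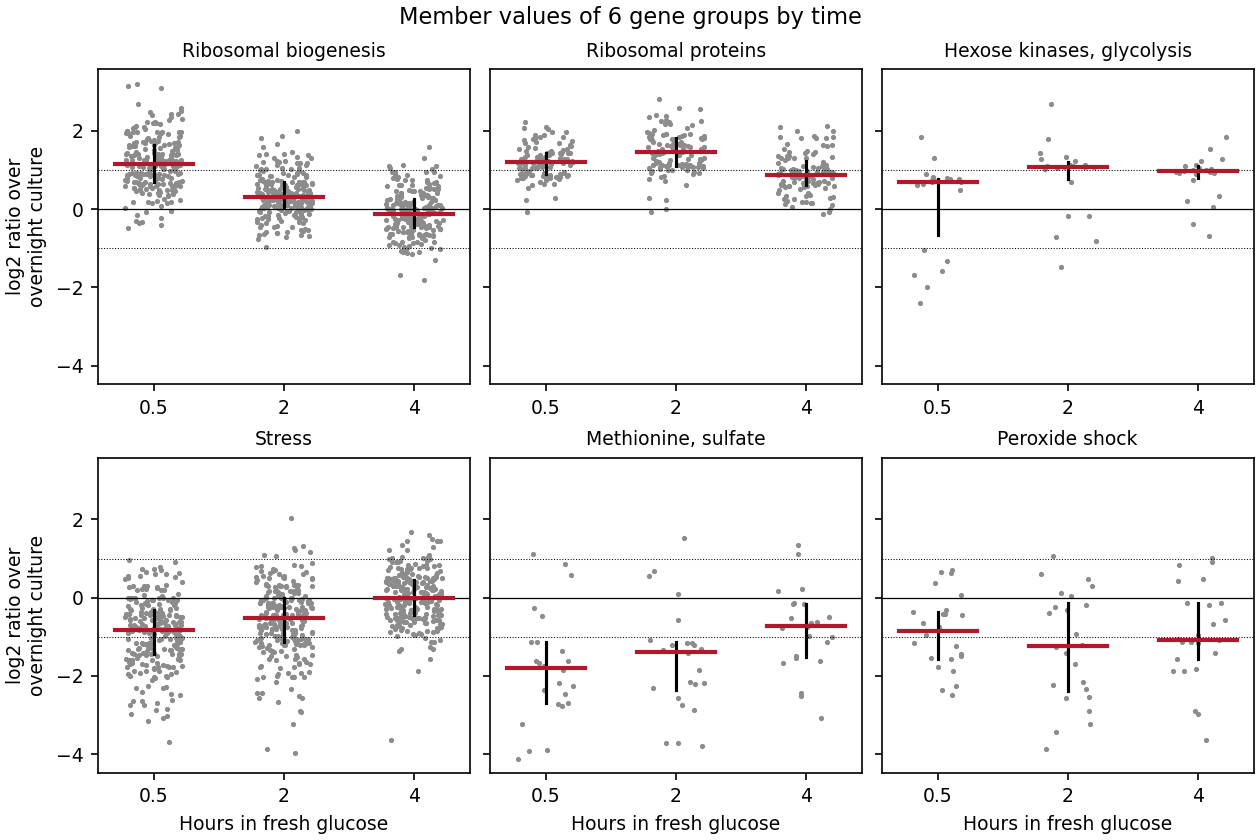
Log2 ratio over the overnight culture of each member (gray points) of 6 gene groups at 0.5, 2 and 4 h in fresh glucose, 1 array per time; red lines are medians, black bars the interquartile range, and dotted lines mark 2-fold. The ribosomal biogenesis median passes from 1.15 to -0.12 and the stress median from -0.82 to 0.00, whereas the peroxide shock median stays at -0.84, -1.23 and -1.07.

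Stress genes were lower early and returned later than the assembly genes did. The stress module of the study had medians of -0.82, -0.52 and 0.00 at 0.5, 2 and 4 h. Past 2-fold lower were 104 of 246 members at 0.5 h (6.23% of all ORFs), 78 of 251 at 2 h (5.21% of all ORFs) and 11 of 251 at 4 h (3.56% of all ORFs), while 0, 7 and 15 were past 2-fold higher, shares below the 9.70, 8.89 and 6.71% of all ORFs. Between 0.5 and 4 h 103 of 244 members went up by 2-fold or more, against 5.14% of all ORFs, and 2 went down. The early lower class of 283 ORFs held 97 of these genes. At 4 h the members were split evenly, with 125 above and 124 below 0.

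*RGI1*, a gene of respiratory growth, had the lowest stress value at 0.5 h and one of the fullest returns, with -3.68, -0.90 and 0.91. *RTC3* read -3.15, -2.67 and 0.24. The disaggregase gene *HSP104* stood at -3.02, -1.69 and 0.01 and the small heat shock protein gene *HSP42* at -2.97, -1.94 and -0.52. The other small heat shock protein genes were out of step with these: *HSP26* was at -0.39, -3.98 and -1.32 and *HSP12*, a membrane-associated one, at -0.45, -1.95 and 0.53, so both were lowest at 2 h and hardly lower at 0.5 h. *HSP30*, of the plasma membrane, read -1.97, -0.98 and 1.26. Only 5 stress genes were sustained lower, namely *AMS1*, *CTT1*, *DCS2*, *GRE2* and YNL115C. The catalase T gene *CTT1* was at -1.58, -1.58 and -1.25.

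Of the storage carbohydrate genes, 11 were in the early lower class, which held 283 of 5751 ORFs. The 21 genes of trehalose and glycogen metabolism had medians of -1.19, -0.64 and 0.29, with 11 of 21, 8 of 21 and 0 of 20 past 2-fold lower, against 6.23, 5.21 and 3.56% of all ORFs. Phosphoglucomutase *PGM2* was at -2.84, -2.43 and 0.30, UDP-glucose pyrophosphorylase *UGP1* at -2.63, -1.05 and 0.72, glycogen phosphorylase *GPH1* at -2.73, -2.51 and 0.18 and the debranching enzyme *GDB1* at -2.86, -2.02 and 0.14. The glycogen breakdown genes *GPH1* and *GDB1* thus shared this course with *PGM2* and *UGP1*, which act in making UDP-glucose. In trehalose synthesis the subunits parted by 4 h, when *TSL1* was at 1.45 (from -0.91 and -0.23 at the earlier times), *TPS2* at 0.85 and *TPS1* at -0.46. Between 0.5 and 4 h 12 of 20 genes of this list went up by 2-fold or more, against 5.14% of all ORFs, and none went down.

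Some vacuolar protease, autophagy and proteasome genes were also lower. Past 2-fold lower at 0.5, 2 and 4 h were 5, 7 and 1 of 13 genes of the autophagy and vacuolar protease list and 7, 8 and 3 of 33 genes of the proteasome list, against 6.23, 5.21 and 3.56% of all ORFs, and none of either list was past 2-fold higher. *ATG8*, of the autophagosome, read -1.76, -1.68 and -0.34, the vacuolar proteinase gene *PRB1* -1.77, -1.98 and -0.76 and the aminopeptidase gene *APE1* -1.55, -2.89 and -0.95, and the list had medians of -0.78, -1.05 and -0.32. *ATG1*, the kinase that starts autophagy, was past 2-fold lower at all 3 times, at -1.55, -1.05 and -1.64. The proteasome list had medians of -0.51, -0.68 and -0.34, and 29, 29 and 27 of them were below 0. *RPN4*, the transcription factor of the proteasome genes, was at -1.65, -1.32 and -2.13, lower at 4 h than at any earlier time.

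Methionine and sulfate genes held some of the lowest values, and part of them came back. In the list for methionine synthesis and sulfate assimilation the medians were -1.80, -1.38 and -0.72, with 19, 19 and 9 of 24 genes past 2-fold lower (6.23, 5.21 and 3.56% of all ORFs) and 1, 1 and 2 past 2-fold higher (9.70, 8.89 and 6.71% of all ORFs). Between 0.5 and 4 h 12 of the 24 went up by 2-fold or more, against 5.14% of all ORFs, and none went down. The list had 10 genes in the early and 9 in the sustained lower class, which held 283 and 65 of 5751 ORFs. The lowest value of any gene with a symbol at 0.5 h was in this list: *MET16*, PAPS reductase, stood at -4.11, -3.80 and -3.07. *MET3*, ATP sulfurylase, was at -3.90, -3.73 and -2.50, and *MET5*, of sulfite reductase, at -3.93, -3.72 and -1.54. The sulfate permease gene *SUL1* did not come back at all (-2.36, -2.20 and -2.42), while *MET6*, methionine synthase, was at -3.24, -2.75 and 0.16. *MUP1*, the methionine permease gene, came back as well, at -2.19, -1.21 and -0.17. *MET2* went the other way, at 1.12, 1.52 and 1.33. The list includes *MET17*, which the strain lacks, and the strain needs methionine from the medium.

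The peroxide shock module, a set of oxidoreductase and detoxification genes, stayed low, with medians of -0.84, -1.23 and -1.07. Past 2-fold lower were 11 of 24, 13 of 24 and 14 of 25 members, against 6.23, 5.21 and 3.56% of all ORFs. In the sustained lower class, which held 65 of 5751 ORFs, were 8 members. Between 0.5 and 4 h 2 of 24 went up by 2-fold or more and 2 came down, against 5.14 and 5.65% of all ORFs. *GRE2*, a methylglyoxal reductase gene, was lower at the later times (-2.50, -3.86 and -3.64), as was the glutathione transferase gene *GTT2* (-2.36, -2.54 and -2.91). *AAD6*, *AAD14* and *AAD10*, aryl-alcohol dehydrogenase genes, read -1.58, -2.24 and -1.87, then -1.86, -1.41 and -1.82, and -1.91, -0.87 and -2.44. *OYE3*, an NADPH oxidoreductase gene outside the module, was at -2.03, -3.01 and -2.94. Not all of the module followed, since *GRX2*, glutaredoxin, was at -1.16, -0.25 and 1.02 and *TSA2*, a peroxiredoxin gene, at 0.06, 0.48 and 0.90.

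**Figure D3:**
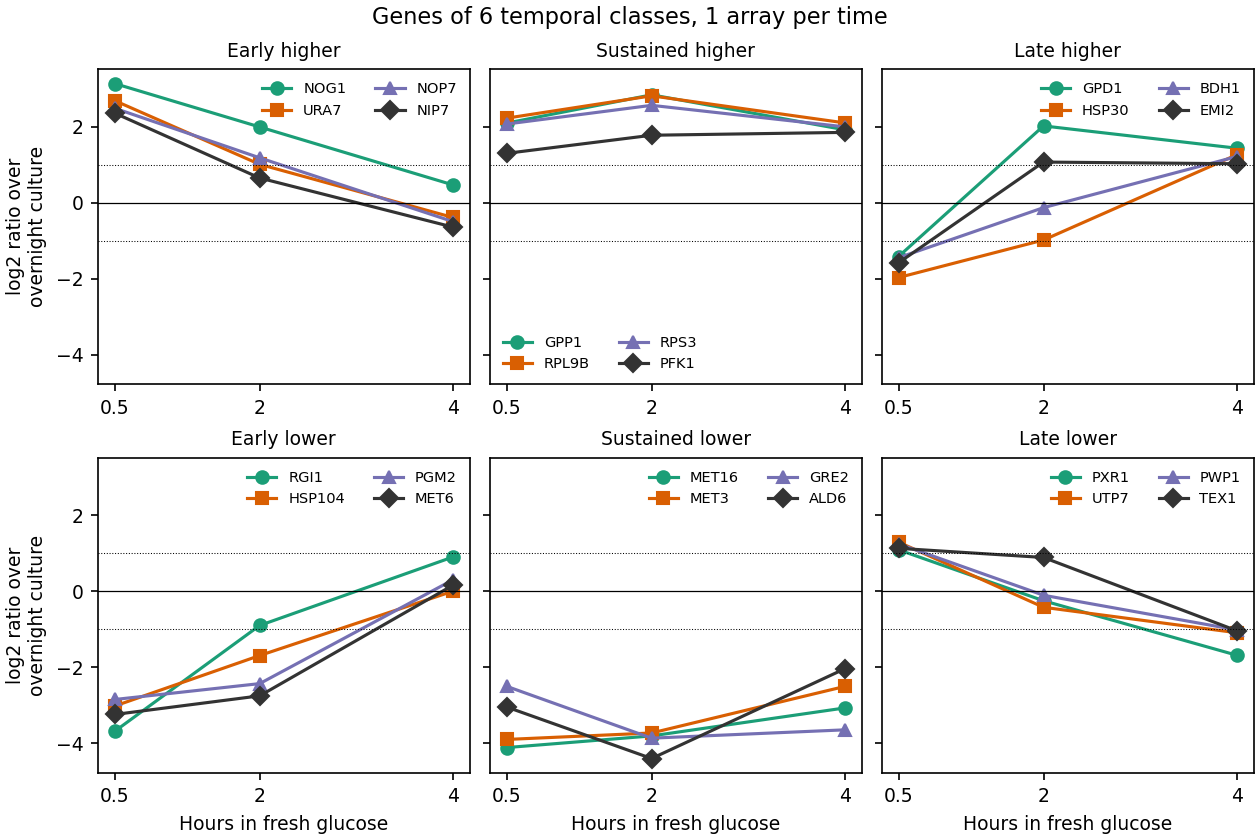
Log2 ratio over the overnight culture against hours in fresh glucose for 4 genes in each of 6 temporal classes, 1 array per time and no error bars; dotted lines mark 2-fold. *NOG1*, *URA7*, *NOP7* and *NIP7* come down from values between 2.36 and 3.14 at 0.5 h, *RGI1*, *HSP104*, *PGM2* and *MET6* return from values between -3.68 and -2.84, and *GPD1* crosses from -1.41 at 0.5 h to 2.02 at 2 h.

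Some genes of the pathways around the missing enzyme had some of the largest ratios, while the lists that hold them had medians close to 0. The 11 genes of glycerol synthesis and use had medians of -0.13, -0.20 and 0.19 at 0.5, 2 and 4 h. In this list 3, 4 and 3 genes were past 2-fold higher (9.70, 8.89 and 6.71% of all ORFs) and 2, 2 and 0 lower (6.23, 5.21 and 3.56% of all ORFs). *GPP1*, glycerol-1-phosphatase, was at 2.10, 2.84 and 1.92, the highest value of any gene with a symbol at 2 h. *GPD2*, one of the isoenzymes of glycerol-3-phosphate dehydrogenase, was at 1.51, 2.37 and 1.20, and *GPP2* at 1.30, 1.53 and 0.76. *GPD1*, the other isoenzyme, was at -1.41, 2.02 and 1.44. All 4 glycerol synthesis genes were thus past 2-fold higher at 2 h, but *GPD1*, also a member of the stress module, was lower at 0.5 h. In the opposite direction, glycerol dehydrogenase *GCY1* was at -2.46, -2.57 and -0.90 and *FPS1*, the glycerol channel, at -0.48, -0.59 and -0.92.

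The 14 pyruvate decarboxylase, alcohol and aldehyde dehydrogenase genes had medians of -0.25, 0.28 and 0.22. In this list 1, 3 and 1 were past 2-fold higher (9.70, 8.89 and 6.71% of all ORFs) and 2, 3 and 1 lower (6.23, 5.21 and 3.56% of all ORFs). Among genes that handle acetaldehyde, *ALD6*, the cytosolic aldehyde dehydrogenase that makes acetate and NADPH, had the lowest value of any named gene at 2 h (-3.04, -4.40 and -2.03). Mitochondrial *ALD4* was at -2.31, -2.09 and -0.65, whereas *ALD5*, also mitochondrial, was at 1.33, 0.97 and 0.71. *ADH2* read -0.12, -0.02 and -0.51 and so showed no gain in glucose. The other alcohol dehydrogenase genes *ADH3*, of the mitochondria, and *ADH5* were past 2-fold only at 2 h, at -0.10, 1.31 and 0.27, and -0.24, 1.04 and 0.17. *BDH1*, butanediol dehydrogenase, passed to higher levels late, at -1.45, -0.13 and 1.22.

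The list of 22 hexose kinase and glycolysis genes was divided at 0.5 h and mostly higher at 2 h. Its medians were 0.70, 1.08 and 0.97, with 2, 16 and 9 genes past 2-fold higher (9.70, 8.89 and 6.71% of all ORFs) and 6, 1 and 0 past 2-fold lower (6.23, 5.21 and 3.56% of all ORFs). The mean over the list at 0.5 h was 0.14, well under the median. The phosphofructokinase subunit genes led, with *PFK2* at 1.85, 2.69 and 1.53 and *PFK1* at 1.30, 1.78 and 1.85. The other 11 genes between phosphoglucose isomerase and pyruvate kinase lay in a narrow band, between 0.65 and 0.90 at 0.5 h, 1.02 and 1.44 at 2 h, and 0.75 and 1.28 at 4 h. Values in or close to that band were also read for *TEF1* (0.82, 1.08 and 0.79), *TEF2* (0.71, 1.01 and 0.80) and *MF(ALPHA)2* (0.71, 0.95 and 0.84), outside glycolysis. Spot intensities are not analysed here, and the part of any property that these spots share was not tested. Isoenzymes split from the main pathway at 0.5 h, when glucokinase *GLK1* was at -2.40, *EMI2* at -1.58, *GPM2* at -1.99, *PYK2* at -1.34 and hexokinase *HXK1* at -1.04. *EMI2* was at 1.07 and 1.03 at the later times and *HXK1* at -0.81 and 0.94, and *PFK26*, which makes an activator of phosphofructokinase, stayed lower (-1.68, -1.47 and -0.68).

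Hexose transporter genes were mostly within 2-fold. *HXT1* was at 0.71, 0.49 and 0.54 and *HXT3* at 0.70, 0.79 and 0.81, and *HXT5* was higher from 2 h on (0.04, 1.17 and 1.10). The glucose sensor gene *RGT2* was past 2-fold throughout (1.05, 1.24 and 1.44), and *MTH1*, a corepressor of *HXT* genes, lower at first (-1.54, -1.34 and -0.68). Genes of respiration and of growth on nonfermentable carbon showed little, with medians of 0.03, -0.15 and 0.36 over the 51 genes of the oxidative phosphorylation module and -0.17, 0.02 and 0.34 over the glyoxylate cycle and gluconeogenesis list. By 4 h 7 of the 51 oxidative phosphorylation genes were past 2-fold higher (6.71% of all ORFs) and 0 lower.

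Among other biosynthetic groups, branched-chain amino acid synthesis was early, with medians of 1.07, 0.63 and 0.47. *BAT1*, the mitochondrial aminotransferase gene, was at 2.55, 1.44 and 0.40 and *LEU1* at 2.33, 1.11 and 0.91, and *OAC1*, a mitochondrial oxaloacetate carrier gene, at 2.82 and 1.32 at 0.5 and 2 h with no value at 4 h. The phosphate regulon had medians of 0.98, 0.33 and 0.14, and the acid phosphatase genes *PHO5* (1.45, 0.54 and 1.32) and *PHO11* (2.22, 1.27 and 2.02) dipped at 2 h, unlike the polyphosphate synthesis genes *VTC3* (1.05, -0.34 and -0.65) and *VTC4* (1.18, 0.28 and 0.02). Other genes that dipped were *FPR4*, a nuclear proline isomerase (1.63, 0.98 and 1.31), *LAA1* (1.28, 0.78 and 1.47) and *UBP11*, a ubiquitin protease gene (1.28, 0.74 and 1.36). *NCE103*, carbonic anhydrase, had the highest value of all named genes at 0.5 h and did not hold it (3.63, 0.49 and 0.89).

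Being past 2-fold at 2 h only was less common than the early and late courses. Medians of this middle class were 0.75, 1.12 and 0.72 for higher and -0.67, -1.09 and -0.69 for lower ORFs, so the class does not by itself show a clear peak. The nicotinic acid permease gene *TNA1* showed a peak at 2 h most clearly (0.26, 2.38 and 0.61), followed by *MAG2* (0.18, 1.26 and 0.04) and the splicing helicase gene *PRP16* (0.13, 1.02 and -0.21). On the lower side were the serine hydrolase gene *FSH1* (-0.38, -1.34 and 1.70), the cell wall mannoprotein gene *HPF1* (-0.19, -1.10 and -0.20) and *ZDS1* (-0.06, -1.04 and -0.14). Of these, *FSH1* was also past 2-fold higher at 4 h. The values of *HPF1*, *ZDS1* and *PRP16* at 2 h were only just past the 2-fold line. Past 2-fold lower at 0.5 and 4 h were *SPO73*, a meiotic gene (-1.44, -0.85 and -1.31), *YRB30* (-1.23, -0.71 and -1.34) and *ASH1*, a regulator of mating type switching (-1.25, -0.88 and -1.19). They were also lower at 2 h, but short of 2-fold.

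Markers of mating type were set beside the genotype, which is *MAT*a. The 7 a-specific genes had medians of -0.25, -0.06 and -0.18 and ranged between -1.74 and 0.72. Of these, *STE6*, the a-factor exporter, was at -1.17, -0.85 and -0.99 and *AGA2*, an agglutinin subunit gene, at -0.65, -1.74 and -1.02, while the other 5 stayed within 2-fold. The 4 alpha-specific genes had medians of 0.72, 0.86 and 0.80, with *MF(ALPHA)1*, *MF(ALPHA)2* and *SAG1* between 0.71 and 1.14 and *STE3*, the a-factor receptor gene, at -0.19, -0.14 and 0.12. Both channels hold the same strain and ratios do not give levels, so these values do not show which mating type the cells were.

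In glycerol, the same overnight culture served as reference, and values are therefore set side by side without a test or a correlation. At 0.5, 2 and 4 h the ribosomal biogenesis medians were 1.15, 0.30 and -0.12 in fresh glucose and -0.54, -0.15 and -0.16 in glycerol, so that they lay far apart at 0.5 h and close together at 4 h. For RP genes they were 1.19, 1.46 and 0.88 in fresh glucose and -1.50, 0.22 and -0.14 in glycerol, apart at all 3 times. Stress genes had -0.82, -0.52 and 0.00 in fresh glucose and 1.16, 0.66 and 0.29 in glycerol, and trehalose and glycogen genes -1.19, -0.64 and 0.29 in fresh glucose and 1.62, 0.65 and 0.33 in glycerol. By 4 h these groups too had come close to each other in the 2 media.

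Other groups had ratios of the same sign in both media. The methionine and sulfate list was at -1.80, -1.38 and -0.72 in fresh glucose and -1.85, -2.01 and -1.63 in glycerol, and *MET3* at -3.90, -3.73 and -2.50 in fresh glucose and -3.91, -4.06 and -3.71 in glycerol. The peroxide shock module was below 0 in both, at -0.84, -1.23 and -1.07 in fresh glucose and -0.31, -0.76 and -0.92 in glycerol. *NCE103* was 2-fold or more higher in both at 0.5 h, at 3.63 in fresh glucose and 4.76 in glycerol, and at 4 h it was at 0.89 in fresh glucose and 3.88 in glycerol. The wash and dilution are common to both transfers, and their part in these values was not tested.

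Of the 4 glycerol synthesis genes, *GPP1*, *GPP2* and *GPD2* were above 0 at the 3 shared times in fresh glucose and below 0 in glycerol, a difference that was not tested. *GPP1* was at 2.10, 2.84 and 1.92 in fresh glucose and -2.93, -0.76 and -1.15 in glycerol, and *GPD2* at 1.51, 2.37 and 1.20 in fresh glucose and -1.22, -1.26 and -1.09 in glycerol. *GPP2* was at 1.30, 1.53 and 0.76 in fresh glucose and -2.59, -1.91 and -2.08 in glycerol. *GPD1* differed from these, with -1.41, 2.02 and 1.44 in fresh glucose and 1.16, 0.47 and 0.30 in glycerol, so that it had opposite signs at 0.5 h only. *ALD6* was at -3.04, -4.40 and -2.03 in fresh glucose and 1.01, -0.01 and -0.78 in glycerol. The glyoxylate cycle and gluconeogenesis list, near 0 in fresh glucose (-0.17, 0.02 and 0.34), was at 2.52, 2.19 and 2.07 in glycerol.

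**Figure D4:**
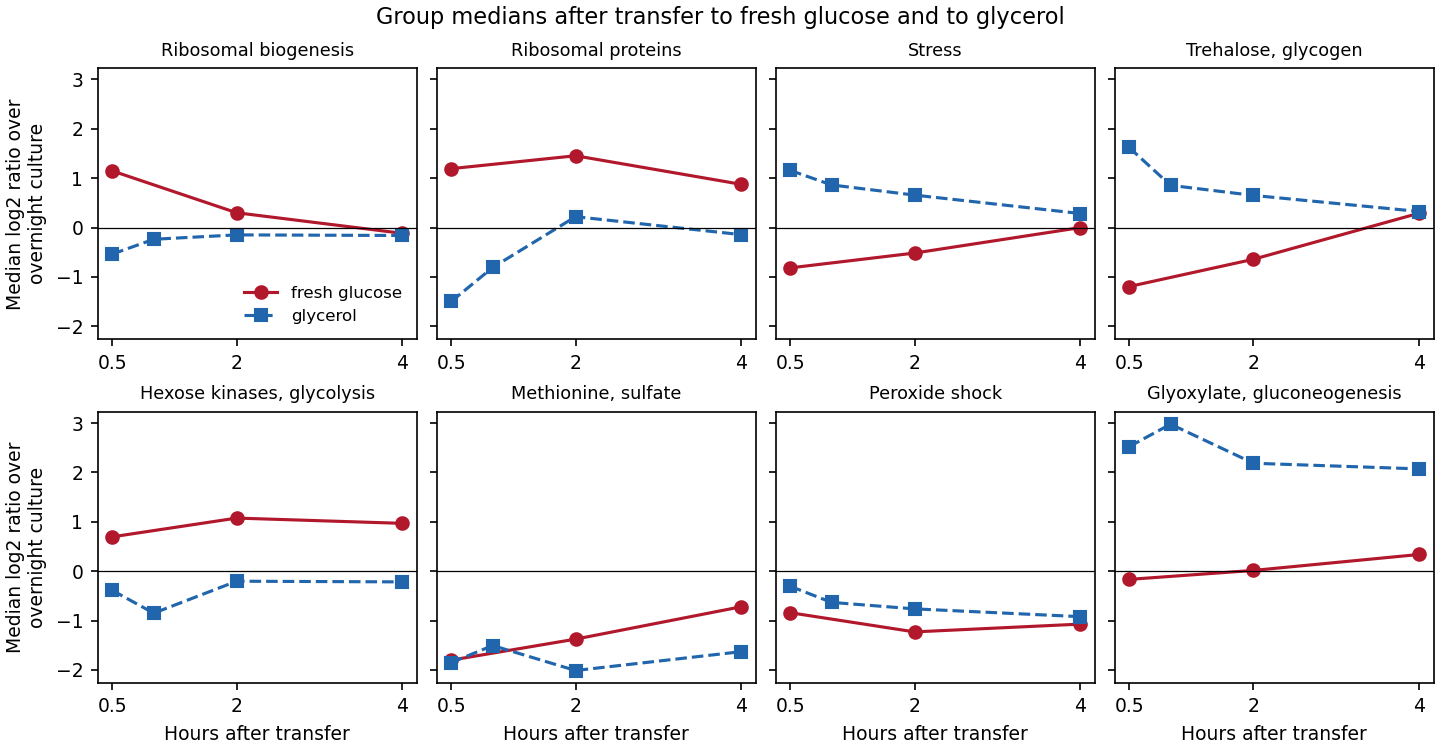
Median log2 ratio over the shared overnight culture of 8 gene groups against hours after transfer to fresh glucose (red circles, 0.5, 2 and 4 h) and to glycerol (blue squares, 0.5, 1, 2 and 4 h), 1 array per point. The stress medians are -0.82, -0.52 and 0.00 in fresh glucose and 1.16, 0.66 and 0.29 in glycerol at the 3 shared times, while the methionine and sulfate medians lie below 0 in both media.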

How the data were processed

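RNA of *adh1* cells was compared with that of their overnight culture on 2-color arrays of PCR-amplified ORFs, after amino-allyl labeling. The authors scanned the arrays, adjusted the ratios for technical bias, normalized them and deposited a log2 ratio (Cy5 over Cy3) for each ORF. How this adjustment and normalization were computed is not given in the sources used here. There was no dye swap, so a dye effect is not removed. No spot intensities were used, so how far a spot stood above background is not known, and the single array per time sets the precision.

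These deposited log2 values were kept unchanged, exact zeros (111, 118 and 102 on the 3 arrays) included. Of 6132 ORF names, 5138 had a gene symbol in the reference annotation, 527 were in it under the ORF name alone and 467 were not in it.

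With 1 array per time no test was possible. ORFs at a log2 ratio of at least 1 or at most -1 (2-fold) were counted and classed by time, and medians were taken over 44 lists by function and 20 modules of the study (1 further list is not reported here). The classing was tested on simulated data. Named genes are the 4 with a symbol and the largest score in each class and direction (the smallest value over the times for sustained genes, the change between the times for the others), the 4 highest and lowest at each time, and members of described lists. Members and lists were chosen with earlier results of these data known. Alternatives covered the fold, centering, scaling, zeros, naming, missing values and the mean. The work used Python 3.11.15, numpy 2.4.6, pandas 2.3.3 and matplotlib 3.10.9.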

Additional observations from a re-analysis of the deposited data

Results flagged for a closer look

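A gene group is listed here where its median log2 ratio lay on one side of 0 on all 3 arrays in fresh glucose and on the other side on all 4 arrays in glycerol. Each value is the mean of the medians in fresh glucose minus the mean in glycerol. These differences were not tested, since each time has 1 array and both media share the overnight reference.

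The largest was that of the 4 alpha-specific mating genes, 2.35, with medians between 0.72 and 0.86 in fresh glucose and between -3.30 and -0.52 in glycerol. The hexose kinase and glycolysis genes differed by 1.33, the cytosolic aminoacyl-tRNA synthetases by 1.23, the phosphate regulon by 1.04 and the histidine and aromatic amino acid synthesis genes by 0.75, all higher in fresh glucose. Genes of peroxisomal beta-oxidation (-1.33) and of autophagy and vacuolar proteolysis (-1.08) were lower in fresh glucose.

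3 further groups had medians between -0.05 and 0.28 in fresh glucose. These were the genes often used as steady references (0.57), the phosphate and iron utilization module (0.41) and the inositol, phospholipid and fatty acid synthesis genes (-0.14).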

How the results depend on the processing

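Each value rests on 1 array, and intensities are not analysed here, so dim spots cannot be told from bright ones. Centering each array, leaving out exact zeros, keeping named ORFs or keeping ORFs with all 3 values moved no count by over 1.5 times, and no group median that was past 2-fold changed sign under any alternative run. At a fold of 1.5, 1300, 1206 and 1183 ORFs were higher at 0.5, 2 and 4 h and 1026, 944 and 850 lower, with 562 sustained, 618 early and 481 late higher ORFs and 334 sustained, 595 early, 419 late and 171 middle lower ones. At a fold of 3 these were 154, 132 and 60 higher and 103, 75 and 29 lower, with 18 sustained, 128 early, 40 late and 64 middle higher ORFs and 15, 84, 11 and 20 lower ones. Early was thus the most frequent class at each of these folds, in both directions. Scaling each array to the spread at 0.5 h gave 664 higher and 387 lower ORFs at 4 h, 399 late higher and 265 late lower ORFs, RP medians of 1.53 at 2 h and 1.05 at 4 h and a peroxide shock median of -1.29 at 4 h; the late classes then outnumbered the early ones (316 higher and 254 lower). The mean in place of the median put the stress genes at -0.90 and -0.60 at 0.5 and 2 h and moved 72 further group values by more than the spread of their medians over the replicate log-phase arrays, by at most 0.554 (glycolysis at 0.5 h, to 0.14). The promoter motif groups with their 2 alternatives were not run. No paired analysis was possible because the course has 1 array per time and no replicate numbers.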

Other observations

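A few groups outside the comparisons above also moved. The 32 genes of the calcium calmodulin module had median log2 ratios of -0.51, -0.52 and -0.21 at 0.5, 2 and 4 h in fresh glucose, with 9, 9 and 0 of them past 2-fold lower, against 6.23, 5.21 and 3.56% of all ORFs, and none higher. In one-carbon metabolism *SHM2* was at 0.38, 0.63 and 1.24, *MTD1* at 0.62, 0.47 and 1.13 and *GCV2* at 1.10, 0.95 and 1.53, highest at 4 h, whereas the GMP synthase gene *GUA1* (2.09, 1.37 and 0.16) and the cytosine permease gene *FCY2* (1.54, 0.77 and -0.16) were early. Sterol synthesis held both kinds, with *ERG7* at 2.00, 1.30 and 0.59 and *HMG2* at 0.18, 0.67 and 1.34. Among genes of metal uptake *FIT2* was at -0.09, 1.20 and 1.27 and the copper transporter gene *CTR1* at -0.79, 0.05 and 1.23.

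Genes often used as steady references were not all steady. *ACT1* was at 0.45, 0.84 and 0.76, *UBC6* at -0.80, -1.01 and -1.35 and *PDA1* at 0.10, 0.06 and 1.20, while *ALG9* was at -0.01, 0.05 and 0.15. The median over the 100 genes of the mitochondrial ribosomal protein module was 0.00, -0.05 and 0.11.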
